A study of Mus musculus with 6 samples.

Results

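Genes of the 4 mouse HOX clusters, 38 in number, were followed through 6 RNA-seq libraries of E14TG2a, a feeder-independent line of mouse embryonic stem cells (ESCs). They were taken from 24984 gene rows by symbol, the word Hox followed by a cluster letter and a position number: 10 genes of cluster a, 10 of cluster b, 9 of cluster c and 9 of cluster d. The groups were cells with the METTL3 substitution D395A (D395A, 2 libraries), cells with a CRISPR/Cas9 disruption of METTL3 (KO, 2 libraries) and cells labelled WT (2 libraries), all grown in N2B27, a serum-free medium, with no further treatment named in the labels. METTL3 is the catalytic subunit of the enzyme that writes N6-methyladenosine (m6A) on RNA, D395A changes a residue of its catalytic motif, and that substitution had been put into the line by CRISPR/Cas9 cutting followed by homology-mediated end joining. Each mutant group is a single line as far as the labels say. Whether a line came from 1 clone, and whether its 2 libraries came from separate cultures, is not stated, and p-values therefore measure no more than how far these libraries spread, which may be technical. The libraries were rRNA-depleted, directional, and counted per gene by the authors. Mettl3 itself stood at 21.1 and 23.4 CPM in D395A and 7.82 and 6.17 CPM in KO, against 28.5 and 31.6 CPM in WT. CPM is the count of a gene scaled to a common library size, with library factors from trimmed means (TMM). The knockout libraries were the lowest and overlapped no other group (log2 KO over WT -2.10 ± 0.11 SE, adjusted p = 6.5e-09). By the same test Mettl3 RNA was also lower in D395A than in WT (-0.43 ± 0.10, adjusted p = 0.0022). The substitution itself cannot be checked from gene counts.

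HOX genes encode homeodomain transcription factors that give cells of the hindbrain, trunk and limbs their position along the head-to-tail axis. The genes of a cluster lie in order of their position numbers and are read in the same direction. In the embryo low-numbered members at the 3′ end come on earlier and further forward than high-numbered members at the 5′ end. In undifferentiated ESCs the clusters are held at low expression by Polycomb group proteins, and retinoic acid switches on 3′ members such as Hoxb1 quickly.

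On GRCm38 (mm10), the Hoxa genes followed here span chr6:52162417-52260880 on the minus strand, the Hoxb genes chr11:96194316-96368256, the Hoxc genes chr15:102921103-103036852 and the Hoxd genes chr2:74668310-74765142, all 3 on the plus strand, by the GENCODE M21 annotation. The totals counted in genes were 22859491 and 35784699 in D395A, 35851584 and 35613626 in KO, and 40476809 and 36136543 in WT, so that 1 count was worth between 0.0246 and 0.0426 CPM. Exons of 9 HOX genes overlap those of a gene on the same strand, and exons of 9 overlap a gene on the opposite strand. No source used here gives the strand setting of the counting, which makes the counts of these genes uncertain. The overlap is over 50% of exon bases for Hoxd3 (62.3%) and Hoxd4 (52.3%), mainly with each other and Gm28230, and for Hoxb3 (52.9%, with Hoxb3os on the opposite strand). The other large overlaps are Hoxa11 with Hoxa11os (35%), Hoxb2 with Hoxb3os (27.3%) and Hoxa3 with several antisense RNAs (25.4%).

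The replicates of the mutant groups were uneven for many HOX genes. Of 34 HOX genes with at least 10 counts in the 2 D395A libraries, 20 (58.8%) were at least 2-fold higher in D395A replicate 1 than in D395A replicate 2, against 4.23% of all genes, and 0 were lower by as much. Of 32 such genes in KO, 16 (50%) were at least 2-fold higher in KO replicate 2 than in KO replicate 1, against 3.19% of all genes. With genes limited to at most 200 counts the shares were 69% of HOX genes against 14.2% of all genes in D395A, and 61.5% against 11.1% in KO. In WT, 2 of 26 HOX genes were higher in replicate 1 by that much and 3 in replicate 2. The unevenness was shared: Hoxa9, Hoxa11, Hoxb5, Hoxb7, Hoxb8, Hoxc5, Hoxc6, Hoxc8, Hoxc9, Hoxd3 and Hoxd10 were high in both D395A replicate 1 and KO replicate 2. These are 11 of 30 HOX genes with enough counts in both groups, and 0 went the other way. It was not limited to HOX genes: over all genes, 27 stood at least 8-fold higher in these 2 libraries than in the other library of their group, by a rule chosen after the values were seen. This compares with 0 for each other pairing of a D395A with a KO library. Examples were also chosen after their values were seen. The mesenchymal regulator Twist2 had 2.26 and 0 CPM in D395A, 0 and 1.07 in KO, and 0 in both WT libraries. Prrx1, of the same kind, had 2.81 and 0.305 CPM in D395A, 0.0853 and 1.18 in KO, and 0 in both WT libraries. The forebrain regulator Dlx1 had 3.83 and 0.111 CPM in D395A and 0.114 and 2.22 CPM in KO, against 0.369 and 0.11 CPM in WT. What these libraries share was not tested, and the HOX results that rest on them are given below also without 1 or both of them. Without both, D395A and KO have 1 library each, assumed to vary like the WT pair, and with 1 residual degree of freedom edgeR used a single shared spread for all genes. Calls in that fit are therefore easier to reach than in the fit to all 6 libraries whose calls are reported below. Hoxa11, Hoxb3, Hoxb5, Hoxb8, Hoxd3 and Hoxd10 had too few counts to be tested there.

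**Figure D1:**
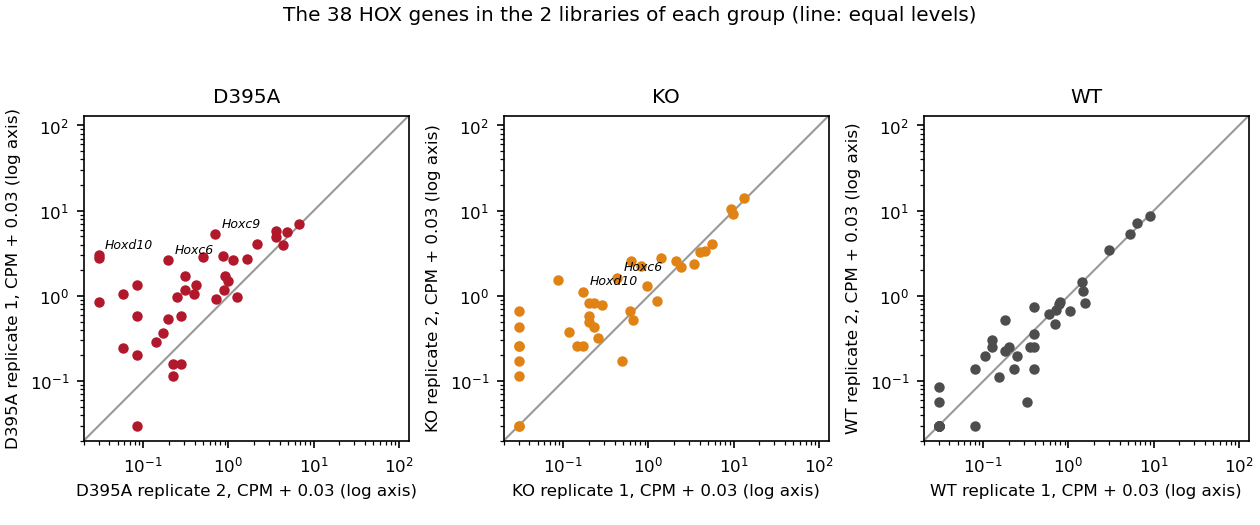
Level of each of the 38 HOX genes in a library of a group (x axis) against the other library (y axis), in TMM-scaled CPM with a small offset so that 0 can be shown, both axes logarithmic, with 1 panel each for D395A, KO and WT and a line at equal levels. Most points lie above the line for D395A replicate 1 and many for KO replicate 2, with Hoxc6, Hoxc9 and Hoxd10 among them, while the WT points scatter about it.

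Cluster a was the cluster in which D395A stood apart. Its 10 genes summed to 25.2 and 14.9 CPM in D395A and 1.88 and 5.19 CPM in KO, against 2.24 and 2.92 CPM in WT, and D395A overlapped neither group. All 38 genes summed to 74.1 and 37.8 CPM in D395A and 63.2 and 72.7 CPM in KO, against 35.9 and 35.5 CPM in WT. Both mutant groups were above WT by this sum, D395A replicate 2 only narrowly, and they overlapped each other.

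The other clusters had another order. Cluster b summed to 12.8 and 8.18 CPM in D395A and 15.8 and 16.3 CPM in KO, against 7.67 and 8.32 CPM in WT, so only KO stood clear of WT. Cluster c summed to 25.6 and 10.6 CPM in D395A and 34.6 and 40.9 CPM in KO, against 22.1 and 20.9 CPM in WT: KO was again highest, and the 2 D395A libraries lay on either side of WT. Cluster d summed to 10.5 and 4.21 CPM in D395A and 10.9 and 10.3 CPM in KO, against 3.88 and 3.31 CPM in WT, both mutant groups above WT. In each cluster the D395A sum was higher in replicate 1. In bulk RNA, fewer cells that express a gene and less of its RNA per cell cannot be told apart.

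**Figure D2:**
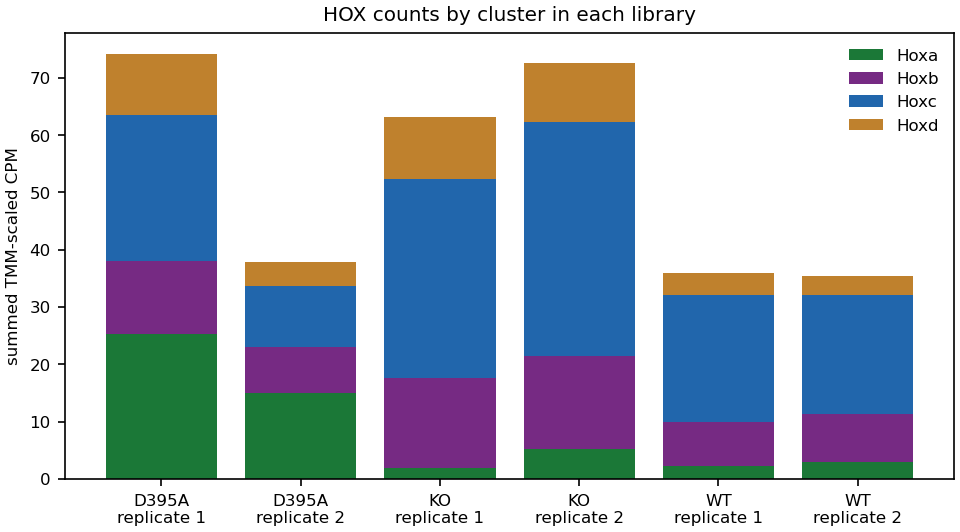
Summed TMM-scaled CPM of the HOX genes in each library, stacked by cluster, for the 2 libraries each of D395A, KO and WT. Cluster a is high in both D395A libraries (25.2 and 14.9 CPM) and low in KO and WT, where cluster c is the largest.

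Per kilobase of exon, which allows genes to be compared, the leading members in D395A were Hoxa2 (mean 2.38 CPM per kb), Hoxb9 (2.03), Hoxc4 (1.82) and Hoxc13 (1.67). In KO they were Hoxc13 (5.53 CPM per kb), Hoxc12 (4.63), Hoxc4 (3.84) and Hoxb9 (3.67). In WT they were Hoxc12 (5.12 CPM per kb), Hoxc13 (3.59), Hoxb9 (2.60) and Hoxc4 (1.25). Hoxc12 and Hoxc13, at the 5′ or posterior end of cluster c, thus led in KO and WT, whereas a 3′ gene of cluster a led in D395A. Of the 38 genes, 37 and 35 had at least 1 count in D395A, 30 and 36 in KO, and 30 and 31 in WT. Genes above 1 CPM numbered 23 and 9 in D395A, 11 and 16 in KO, and 8 and 6 in WT.

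The test (edgeR's quasi-likelihood F test over all 6 libraries, Benjamini-Hochberg adjusted over 15663 genes within a comparison, threshold 0.05) was run on the 34 HOX genes that passed the filter on low counts. Hoxa6, Hoxb6, Hoxd1 and Hoxd12 did not pass. For D395A over WT, 21 HOX genes rose, 7 fell and 6 missed the threshold, where 70.3% of all tested genes were called (36.3% higher, 34.0% lower). For KO over WT, 14 rose, 0 fell and 20 missed it, where 66.2% of all genes were called (33.6% higher, 32.6% lower). For D395A over KO, 8 rose, 9 fell and 17 missed it, where 50.4% of all genes were called (26.5% higher, 23.8% lower). At an unadjusted p under 0.05, 0 HOX genes were lower in KO by edgeR or by DESeq2. With so many genes called throughout, the share of HOX genes called is no result in itself. A member could also pass the filter through the very group in which it is high.

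Split by position number, most higher calls of D395A over WT lay at positions 1 to 8 and all 7 lower calls at positions 9 to 13, the 5′ end. For D395A over WT, positions 1 to 3 held 6 higher and 0 lower calls (7 members, 6 tested). Positions 4 to 8 held 10 higher and 0 lower (15 members, 13 tested), and positions 9 to 13 held 5 higher and 7 lower (16 members, 15 tested). Tested members with 0 counts in WT (Hoxa2, Hoxb1, Hoxb3, Hoxb5 and Hoxd3) could only be called higher over WT. Others at positions 1 to 8 had few counts over the WT group, such as 6 at Hoxb8, 8 at Hoxc6 and 9 at Hoxb2. They had little room for a lower call, so the lack of lower calls at positions 1 to 8 depends in part on their WT level. For D395A over KO the counts were 4 higher and 0 lower at positions 1 to 3, 3 and 1 at positions 4 to 8, and 1 and 8 at positions 9 to 13. For KO over WT they were 2 higher and 0 lower, 7 and 0, and 5 and 0. By cluster, D395A over KO had 6 higher and 1 lower call in a, 2 and 2 in b, 0 and 4 in c, and 0 and 2 in d. D395A over WT had 7 and 1, 5 and 2, 5 and 3, and 4 and 1 in that order. Cluster c has no member below position 4, so position and cluster are not fully separate in these counts. Summed over all their members, positions 1 to 3 stood at 15.6 and 13 CPM in D395A and 0.739 and 1.67 CPM in KO, against 0.615 and 1.1 CPM in WT. Positions 9 to 13 stood at 29.6 and 13.2 CPM in D395A and 45.4 and 45.9 CPM in KO, against 28.6 and 27.6 CPM in WT. In the fit given next, Hoxa11, Hoxb3, Hoxb5, Hoxb8, Hoxd3 and Hoxd10 were not tested, so their calls could neither hold nor fail there. Without D395A replicate 1 and KO replicate 2, 8 of the 21 higher calls of D395A over WT and all 7 lower ones held. In the same fit 7 of the 14 higher calls of KO over WT held, as did 7 of 8 higher and 9 of 9 lower calls of D395A over KO.

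**Figure D3:**
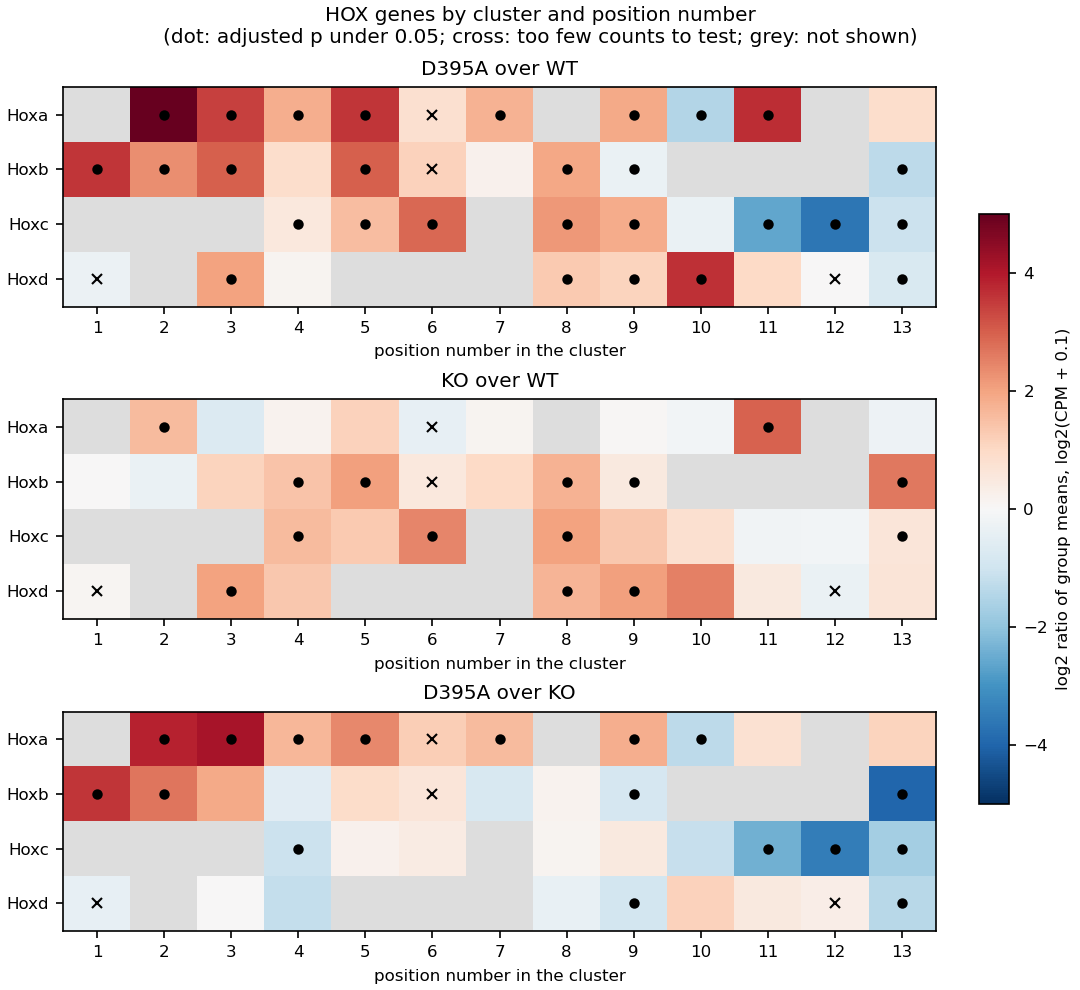
Colour map of the 38 HOX genes by cluster (rows) and position number (columns) for D395A over WT, KO over WT and D395A over KO, coloured by the difference of group means on the log2(CPM + 0.1) scale, with a dot where the adjusted p was under 0.05 and a cross where counts were too few to test. In D395A the left side (3′ members) is higher and the positions from 11 to 13 of clusters b, c and d are mostly lower or uncalled, whereas KO over WT is higher in the middle of clusters b, c and d and mostly uncalled along cluster a.

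Positions 1 to 3, which pattern the hindbrain and pharyngeal arches, were higher in D395A than in WT at each of their 6 tested members. Hoxa2, which sets the identity of the second pharyngeal arch, had 4.86 and 3.60 CPM in D395A, 0 and 0.403 CPM in KO, and 0 counts in both WT libraries. It was at least 105-fold higher in D395A than in WT, against the floor of 3 counts over the WT group (adjusted p = 3.3e-05). Its log2 change over KO was 4.37 ± 0.78 (adjusted p = 0.00065 by edgeR, 0.26 by DESeq2). Its call for KO over WT, at least 5.14-fold, came from 14 counts of KO replicate 2 (adjusted p = 0.02). It was lost without that library, without either WT library (adjusted p 0.081 to 0.091) and by DESeq2 (adjusted p = 0.16). Hoxb1, a gene of hindbrain segment identity, had 0.937 and 1.22 CPM in D395A and 0 counts in all KO and WT libraries. That is at least 28.4-fold higher than WT (adjusted p = 0.00014) and at least 25.8-fold higher than KO (adjusted p = 0.00032).

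The 250 bases upstream of the starts of Hoxa2 and Hoxb1 are shown because both had clear levels in D395A and 0 counts in WT, with those of Hoxd13, a 5′ member that was lower in D395A, beside them. They are from RefSeq on GRCm38.p6, written 5′ to 3′ on the strand of the gene: Hoxa2 chr6:52164832-52165081 (minus), Hoxb1 chr11:96365508-96365757 (plus) and Hoxd13 chr2:74667975-74668224 (plus). Capitals mark matches to TGATNNAT, a form of the joint site of HOX and PBX proteins, on either strand.
Hoxa2: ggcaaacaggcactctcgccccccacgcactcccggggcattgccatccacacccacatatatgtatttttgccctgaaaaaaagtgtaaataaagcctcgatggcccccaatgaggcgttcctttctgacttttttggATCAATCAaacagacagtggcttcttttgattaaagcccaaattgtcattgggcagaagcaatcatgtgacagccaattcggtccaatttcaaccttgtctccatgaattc
Hoxb1: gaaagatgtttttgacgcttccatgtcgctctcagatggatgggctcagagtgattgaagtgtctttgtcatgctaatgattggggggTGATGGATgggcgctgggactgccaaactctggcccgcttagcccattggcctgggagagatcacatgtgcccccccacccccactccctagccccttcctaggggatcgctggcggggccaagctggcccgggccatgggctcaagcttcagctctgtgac
Hoxd13: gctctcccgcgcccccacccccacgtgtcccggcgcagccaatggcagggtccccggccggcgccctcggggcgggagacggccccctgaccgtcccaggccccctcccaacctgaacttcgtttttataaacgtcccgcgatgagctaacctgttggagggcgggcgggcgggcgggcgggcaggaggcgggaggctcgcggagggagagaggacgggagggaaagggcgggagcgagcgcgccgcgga
Hoxa2 and Hoxb1 have 1 match each and Hoxd13 has none. Hoxa3 and Hoxa5, also higher in D395A, have none either, and the other matches are at Hoxb8 and at 1 of the 2 starts of Hoxd11. In the mouse hindbrain Hoxb1 is known to maintain its own transcription through upstream HOX and PBX sites. Upstream sequences were at hand for 22 of the 38 genes (24 starts), and 4 of the 24 (16.7%) hold TGATNNAT, against 7.68% of 32851 mouse starts. AGGTCA, a core site of retinoic acid receptors, is in 6 (25%) against 14%, CCAAT in 14 (58.3%) against 33.8%, and TATAAA in 4 (16.7%) against 12.4%, each counted on both strands. The number of CG pairs had a median of 12.5 (range 2 to 35) in these HOX sequences and of 6 in all, with 31 in Hoxd13, 6 in Hoxa2 and 7 in Hoxb1. A match is only a run of letters and was not tested as a site.

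Hoxa3, needed for the thymus and parathyroid, had 6.98 and 6.71 CPM in D395A and 0.455 and 0.144 CPM in KO, against 0.369 and 0.717 CPM in WT. D395A lay far above the others, which overlapped (log2 3.66 ± 0.40 over WT, adjusted p = 3.4e-06; 4.49 ± 0.43 over KO, adjusted p = 2.5e-06; KO over WT -0.83 ± 0.50, adjusted p = 0.16, but -1.86 and adjusted p = 0.014 without KO replicate 1). Hoxb2, a hindbrain gene activated by Hoxb1 in the mouse, had 1.15 and 0.86 CPM in D395A and 0 and 0.144 CPM in KO, against 0.0738 and 0.165 CPM in WT. Its log2 change was 3.04 ± 0.86 over WT (adjusted p = 0.0071) and 3.73 ± 0.93 over KO (adjusted p = 0.0052), and without WT replicate 1 the call over WT missed the threshold (2.56, adjusted p = 0.092).

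Hoxb3 had 1.02 and 0.36 CPM in D395A, 0 and 0.23 CPM in KO, and 0 counts in WT. It was at least 15.9-fold higher in D395A than in WT (adjusted p = 0.0028). Hoxd3, which shapes the neck vertebrae, had 0.554 and 0.0555 CPM in D395A, 0.199 and 0.403 CPM in KO, and 0 counts in WT. Both mutant groups were above WT, at least 6.46-fold in D395A (adjusted p = 0.01) and at least 7.71-fold in KO (adjusted p = 0.0092). The D395A call was lost without D395A replicate 1 (adjusted p = 0.18), and both were lost without either WT library (adjusted p 0.054 to 0.06). Hoxd1 had 2 to 12 counts a library and was not tested.

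**Figure D4:**
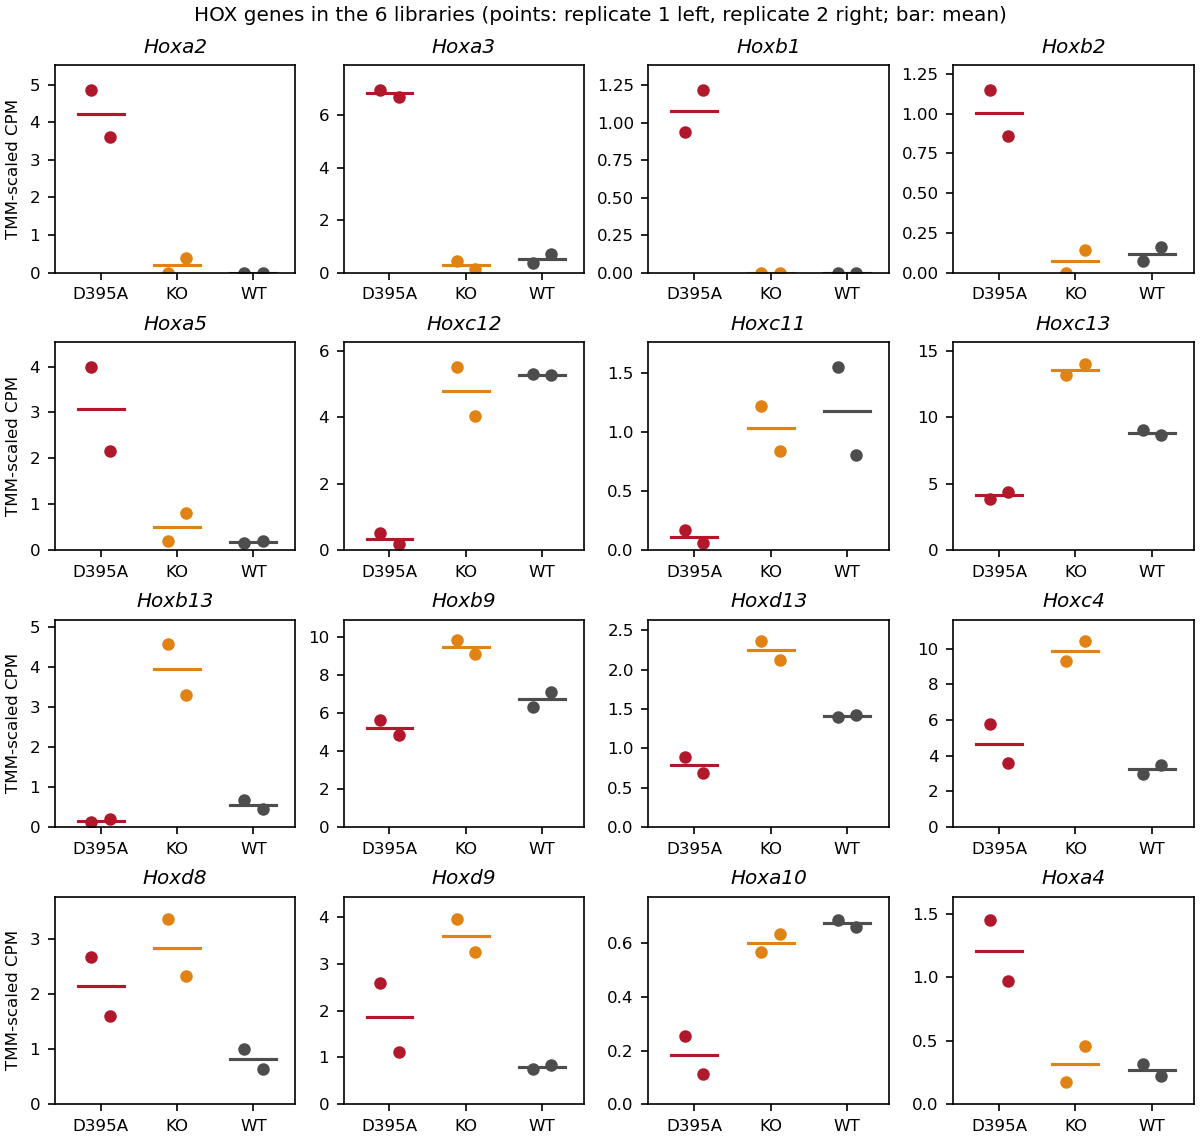
Level of 16 HOX genes in TMM-scaled CPM in each library of D395A, KO and WT, from 0 on a linear axis of its own for each gene, with replicate 1 left, replicate 2 right and a bar at the group mean. Hoxa2, Hoxa3, Hoxb1, Hoxb2, Hoxa4 and Hoxa5 are highest in both D395A libraries, Hoxc11, Hoxc12, Hoxc13, Hoxb13, Hoxb9, Hoxd13 and Hoxa10 are lowest there, and Hoxc4, Hoxd8 and Hoxd9 are highest or among the highest in KO.

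Positions 4 to 8, the genes of the neck and chest levels, were higher in D395A by many calls, but of the 10 calls over WT only that of Hoxa5 held in the fit without D395A replicate 1. Hoxa5, a regulator of lung and neck-to-chest patterning, had 4 and 2.16 CPM in D395A and 0.199 and 0.807 CPM in KO, against 0.148 and 0.193 CPM in WT. Both D395A libraries were above all others (log2 4.15 ± 0.66 over WT, adjusted p = 9.9e-05; 2.60 ± 0.58 over KO, adjusted p = 0.0026), and the KO change of 1.55 ± 0.69 missed the threshold (adjusted p = 0.065). Hoxa4 had 1.45 and 0.97 CPM in D395A and 0.171 and 0.461 CPM in KO, against 0.32 and 0.22 CPM in WT. D395A again overlapped neither group (2.13 ± 0.63 over WT, adjusted p = 0.0087; 1.92 ± 0.62 over KO, adjusted p = 0.022). Hoxa7 had 1.70 and 0.887 CPM in D395A and 0.171 and 0.547 CPM in KO, against 0.148 and 0.496 CPM in WT (2.00 ± 0.72 over WT, adjusted p = 0.025; 1.83 ± 0.71 over KO, adjusted p = 0.049).

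These smaller cluster a calls depended on single libraries. Over WT, Hoxa4 missed the threshold without D395A replicate 1 (1.83, adjusted p = 0.064) or WT replicate 2 (1.90, adjusted p = 0.079). Hoxa7 missed it without D395A replicate 1 (1.47, adjusted p = 0.17) or WT replicate 1 (1.36, adjusted p = 0.20). Over KO, Hoxa4 missed it without D395A replicate 1 (1.61, adjusted p = 0.12) or KO replicate 1 (1.36, adjusted p = 0.13). Hoxa7 missed it over KO in each of these 2 fits (1.30 and 1.21, adjusted p = 0.27 and 0.21) and without D395A replicate 2 or either WT library (adjusted p 0.055 to 0.06). With D395A replicate 1 and KO replicate 2 both left out, where calls are easier to reach, Hoxa4, Hoxa5 and Hoxa7 were called over WT and over KO. Hoxa6 had 0 to 19 counts a library, all 19 in D395A in replicate 1.

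In cluster c the middle genes were high in D395A replicate 1 and KO replicate 2 and low elsewhere. Hoxc6, a chest-level gene, had 2.60 and 0.166 CPM in D395A and 0.398 and 1.61 CPM in KO, against 0.123 and 0.0827 CPM in WT (D395A over WT 3.65 ± 1.13, adjusted p = 0.012; KO over WT 3.23 ± 1.12, adjusted p = 0.023). Hoxc8, which patterns motor neurons of the forelimb level, had 2.85 and 0.471 CPM in D395A and 0.796 and 2.22 CPM in KO, against 0.369 and 0.22 CPM in WT (D395A over WT 2.43 ± 0.79, adjusted p = 0.015; KO over WT 2.33 ± 0.78, adjusted p = 0.019). Every mutant library was above both WT libraries for these 2 genes. Without the 2 uneven libraries the D395A changes were 0.66 (adjusted p = 0.63) at Hoxc6 and 0.66 (adjusted p = 0.43) at Hoxc8. The KO changes were then 1.91 (adjusted p = 0.086) and 1.41 (adjusted p = 0.055). Hoxc5 had 2.90 and 0.832 CPM in D395A and 0.597 and 2.56 CPM in KO, against 0.565 and 0.579 CPM in WT. Only the D395A change passed (1.67 ± 0.69, adjusted p = 0.045; KO 1.46 ± 0.68, adjusted p = 0.076), and it was 0.54 (adjusted p = 0.41) without the 2 uneven libraries. Without either WT library these cluster c calls were lost as well, with adjusted p of 0.055 to 0.17.

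Hoxc4 differed from its neighbours in that the KO rise was even between replicates. It had 5.75 and 3.60 CPM in D395A and 9.33 and 10.4 CPM in KO, against 3 and 3.45 CPM in WT. Both KO libraries were above all others (1.61 ± 0.19 over WT, adjusted p = 9.9e-06; D395A over KO -1.10 ± 0.19, adjusted p = 0.00043). The D395A rise of 0.51 ± 0.21 (adjusted p = 0.042) was 0.16 (adjusted p = 0.51) without the 2 uneven libraries. It also missed the threshold without WT replicate 1 (0.41, adjusted p = 0.20) or WT replicate 2 (0.61, adjusted p = 0.071).

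Hoxd8 was higher in both mutant groups. It had 2.68 and 1.61 CPM in D395A and 3.36 and 2.33 CPM in KO, against 1.01 and 0.634 CPM in WT, with the mutant groups overlapping each other and not WT. The log2 change was 1.36 ± 0.38 for D395A over WT (adjusted p = 0.0069), 1.78 ± 0.38 for KO over WT (adjusted p = 0.0011) and -0.42 ± 0.36 for D395A over KO (adjusted p = 0.35). The D395A call missed the threshold without D395A replicate 1 (0.96, adjusted p = 0.065) or WT replicate 2 (1.07, adjusted p = 0.071), and it passed in the fit without D395A replicate 1 and KO replicate 2 together.

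The remaining members of positions 4 to 8 had few counts. Hoxb4, active in the neck and in blood stem cells, had 1.15 and 0.277 CPM in D395A and 0.938 and 1.27 CPM in KO, against 0.369 and 0.331 CPM in WT. Both KO libraries were above WT and the D395A libraries straddled it (KO over WT 1.65 ± 0.65, adjusted p = 0.040; D395A over WT 0.97 ± 0.67, adjusted p = 0.21). The KO call was lost without KO replicate 2 (1.41, adjusted p = 0.11) or either WT library (adjusted p 0.14 to 0.17). Hoxb5 had 1.32 and 0.0555 CPM in D395A, 0 and 0.634 CPM in KO, and 0 counts in WT. Its calls, at least 14.2-fold in D395A (adjusted p = 0.018) and at least 8.08-fold in KO (adjusted p = 0.048), came from D395A replicate 1 and KO replicate 2. They were lost without those libraries, without either WT library (adjusted p 0.089 to 0.17) and by DESeq2 (adjusted p = 0.13 and 0.21).

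Hoxb8, a target of miR-196 in the mouse, had 0.937 and 0.222 CPM in D395A and 0.256 and 0.749 CPM in KO, against 0.0492 and 0.11 CPM in WT. Every mutant library was above WT (2.77 ± 0.95 in D395A, adjusted p = 0.020; 2.62 ± 0.94 in KO, adjusted p = 0.027). Both calls were lost without the uneven library of their own group (1.46, adjusted p = 0.30, and 1.66, adjusted p = 0.22) or either WT library (adjusted p 0.059 to 0.17). Hoxb7 (0.139 to 0.807 CPM) and Hoxd4 (0.0276 to 0.626 CPM) passed in no comparison when all 6 libraries were used. Hoxb6 had 0 to 5 counts a library and was not tested.

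Positions 9 to 13, the genes of the trunk's rear, limbs and tail, held the falls of D395A. Hoxc12, a gene of the hair follicle, had 0.511 and 0.166 CPM in D395A and 5.52 and 4.03 CPM in KO, against 5.29 and 5.26 CPM in WT. D395A stood far below the others, which overlapped (-4.08 ± 0.35 over WT, adjusted p = 4.4e-07; -3.94 ± 0.36 over KO, adjusted p = 1.5e-06; KO over WT -0.14 ± 0.24, adjusted p = 0.62). Its neighbour Hoxc11 followed the same order at lower level, with 0.17 and 0.0555 CPM in D395A and 1.22 and 0.836 CPM in KO, against 1.55 and 0.799 CPM in WT. D395A was below every other library (-3.45 ± 0.70 over WT, adjusted p = 0.0007; -3.26 ± 0.70 over KO, adjusted p = 0.0019; KO over WT -0.19 ± 0.53, adjusted p = 0.76). Hoxc13, which drives hair and nail keratins, had 3.88 and 4.35 CPM in D395A and 13.2 and 14 CPM in KO, against 9.02 and 8.65 CPM in WT. The 3 groups were apart with KO highest and D395A lowest: -1.09 ± 0.12 for D395A over WT (adjusted p = 5.3e-06), 0.62 ± 0.11 for KO over WT (adjusted p = 0.00026) and -1.71 ± 0.12 for D395A over KO (adjusted p = 1.5e-07). The calls of these 3 genes held in all 6 fits that left out a library.

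Hoxb13, the most posterior gene of cluster b and known for its part in tail and prostate, moved in opposite directions in the mutant lines. It had 0.128 and 0.194 CPM in D395A and 4.58 and 3.31 CPM in KO, against 0.664 and 0.441 CPM in WT, and no groups overlapped. It rose in KO (2.82 ± 0.38 over WT, adjusted p = 2.4e-05) and fell in D395A (-1.72 ± 0.50, adjusted p = 0.0083), with -4.54 ± 0.45 for D395A over KO (adjusted p = 3.6e-06). The fall in D395A rests on 10 counts against 43 in WT and missed the threshold without WT replicate 1 (-1.40, adjusted p = 0.055).

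Hoxb9, a rib patterning gene and the most abundant of cluster b, had 5.62 and 4.82 CPM in D395A and 9.84 and 9.08 CPM in KO, against 6.29 and 7.11 CPM in WT. KO was above WT (0.50 ± 0.13, adjusted p = 0.0049) and above D395A (D395A over KO -0.87 ± 0.14, adjusted p = 0.00021), and D395A was just below WT (-0.37 ± 0.14, adjusted p = 0.033). Hoxb9 lies on chromosome 11, whose 1302 tested genes had a median log2 change of -0.49 for D395A over WT and -0.42 for KO over WT, where the medians over all genes were 0.02 and 0.01. Relative to that chromosome the D395A change of Hoxb9 turned to 0.12 and the KO changes of Hoxb9 and Hoxb13 were 0.91 and 3.24. The part of the chromosome's shift in the Hoxb values was not tested. The medians of chromosomes 2, 6 and 15, which hold the other clusters, lay between -0.02 and 0.16 in these comparisons. The D395A call was also lost without D395A replicate 2 (-0.25, adjusted p = 0.21), without WT replicate 2 (-0.28, adjusted p = 0.17) and by DESeq2 (-0.38, adjusted p = 0.098). The KO call was lost without WT replicate 1 (0.41, adjusted p = 0.057).

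Hoxd13, the digit gene at the 5′ end of cluster d, had 0.894 and 0.693 CPM in D395A and 2.36 and 2.13 CPM in KO, against 1.40 and 1.43 CPM in WT, with no overlap between groups. D395A over KO was -1.51 ± 0.35 (adjusted p = 0.0032), the fall over WT passed narrowly (-0.85 ± 0.35, adjusted p = 0.048), and KO over WT missed the threshold (0.66 ± 0.33, adjusted p = 0.091). The D395A call over WT was lost in 4 of the 6 fits that left out a library, namely D395A replicate 2 (-0.66, adjusted p = 0.19), KO replicate 1 (-0.85, adjusted p = 0.057), WT replicate 1 (-0.87, adjusted p = 0.12) and WT replicate 2 (-0.83, adjusted p = 0.13). Hoxa10, a gene of the lumbar level and uterus, had 0.256 and 0.111 CPM in D395A and 0.569 and 0.634 CPM in KO, against 0.688 and 0.661 CPM in WT. D395A was lowest (-1.93 ± 0.64 over WT, adjusted p = 0.017; -1.76 ± 0.65 over KO, adjusted p = 0.039), and KO over WT missed the threshold (-0.17 ± 0.56, adjusted p = 0.81). Without D395A replicate 2, WT replicate 1 or WT replicate 2 it missed the threshold over WT (adjusted p 0.062 to 0.14), and over KO it did so without any library but D395A replicate 1 (adjusted p 0.068 to 0.23).

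Hoxd9, active in the forelimb, rose in KO in both replicates. It had 2.60 and 1.11 CPM in D395A and 3.95 and 3.26 CPM in KO, against 0.762 and 0.827 CPM in WT. The KO libraries were above all others (2.18 ± 0.39 over WT, adjusted p = 0.00029; D395A over KO -0.99 ± 0.37, adjusted p = 0.040). The D395A rise of 1.19 ± 0.40 (adjusted p = 0.018) was 0.48 (adjusted p = 0.29) without the 2 uneven libraries, and it missed the threshold without either WT library (adjusted p 0.067 to 0.091). The difference from KO missed it without D395A replicate 2 (-0.48, adjusted p = 0.26), KO replicate 1 (-0.86, adjusted p = 0.12) or either WT library (-0.99, adjusted p 0.065 to 0.066).

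At Hoxa11 and Hoxd10 the posterior rises of D395A came from 1 library. Hoxa11, a gene of the forearm and uterus, had 2.77 and 0 CPM in D395A and 0.0569 and 1.5 CPM in KO, against 0 and 0.0276 CPM in WT. With 65 counts in D395A and 54 in KO against 1 in WT, the ratios were 84.0 (95% interval 14.6 to 3369) and 59.5 (10.2 to 2392), intervals that cover counting error only. Hoxd10, a gene of the lumbar motor neurons, had 2.98 and 0 CPM in D395A and 0.142 and 1.09 CPM in KO, against 0.0492 and 0 CPM in WT, with ratios to WT of 45.2 (12.1 to 381) and 23.7 (6.17 to 202). Hoxa11 passed in D395A (adjusted p = 0.018) and in KO (adjusted p = 0.039), and Hoxd10 in D395A (adjusted p = 0.016) but not in KO (adjusted p = 0.057). Without D395A replicate 1 the fit gave log2 values of -2.27 and -3.09 for D395A over WT. They set 0 counts in the only D395A library left against 1 WT count at Hoxa11 and 2 at Hoxd10. These are too few counts to give a direction. The KO call of Hoxa11 was lost without KO replicate 2 (1.86, adjusted p = 0.56). Without WT replicate 1 or 2 these calls were lost too (adjusted p 0.069 to 0.20).

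Hoxc9, a gene of the motor neurons of the chest, had 5.24 and 0.665 CPM in D395A and 1.36 and 2.74 CPM in KO, against 0.738 and 0.772 CPM in WT. A single D395A library was far above WT and the other just below it. Its D395A call (1.92 ± 0.70, adjusted p = 0.027) turned to -0.18 (adjusted p = 0.78) without the 2 uneven libraries, and it was lost without either WT library (adjusted p 0.12 to 0.13). The KO change of 1.44 ± 0.70 missed the threshold (adjusted p = 0.088). Hoxa9, a gene of the blood and lower trunk, had 1.32 and 0.388 CPM in D395A and 0.114 and 0.23 CPM in KO, against 0.0983 and 0.22 CPM in WT. D395A was above both groups (2.38 ± 0.80 over WT, adjusted p = 0.019; 2.26 ± 0.80 over KO, adjusted p = 0.034). It was not past the threshold without the 2 uneven libraries (1.29, adjusted p = 0.22, and 1.74, adjusted p = 0.24). Over WT the call was also lost without WT replicate 1 (1.91, adjusted p = 0.15), and over KO without KO replicate 1 (1.83, adjusted p = 0.13) or either WT library (2.26, adjusted p 0.053 to 0.057).

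Hoxa13 (0.0277 to 1.02 CPM), Hoxc10 (0.277 to 2.56 CPM) and Hoxd11 (0.11 to 0.554 CPM) passed in no comparison when all 6 libraries were used. For Hoxc10 the values were 1.70 and 0.277 CPM in D395A and 2.10 and 2.56 CPM in KO, against 1.45 and 1.10 CPM in WT, so KO was above WT in both libraries (0.87 ± 0.55, adjusted p = 0.18). With all 6 libraries the log2 change of Hoxc10 in D395A was -0.45 over WT and -1.31 over KO. Without D395A replicate 1, its higher D395A library, these were -2.19 and -3.06, with 1 D395A library left. Hoxd12 had 0 to 2 counts a library and was not tested. D395A and KO were set against the same WT libraries, so their changes over WT are not independent of each other.

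Of 17 noncoding RNAs of the clusters in the files, 5 passed the filter on low counts. Of these, 4 rose and 1 fell in D395A over WT (median log2 3.10, against 0.02 over all genes), and 0 rose and 1 fell in KO (median 0.01, as over all genes). Hoxaas2, antisense in the Hoxa3 region, had 1.70 and 1.39 CPM in D395A and 0.114 and 0.0576 CPM in KO, against 0.0246 and 0.0551 CPM in WT (5.17 ± 0.75 over WT, adjusted p = 4.8e-05). D395A was clear of both groups. Hoxa11os rose in D395A (5.57 ± 1.94, adjusted p = 0.022) with 4.13 and 0.0277 CPM there, 0 and 1.67 CPM in KO, against 0.0246 and 0.0551 CPM in WT, the same 2 libraries being high as for Hoxa11, and without them it had too few counts to be tested. Halr1, a noncoding RNA near the 3′ end of cluster a, was the member that fell in KO (-1.43 ± 0.15, adjusted p = 3.1e-06). It had 12.1 and 11.8 CPM in D395A and 2.16 and 1.87 CPM in KO, against 5.36 and 5.51 CPM in WT.

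Mir196a-1, a microRNA gene between Hoxb9 and Hoxb13, was the noncoding member that fell in D395A. Its mature strand is shown because Hoxb8 is a known target of miR-196 in the mouse, with the seed (bases 2 to 8) in capitals, from RefSeq on GRCm38.p6, chr11:96265187-96265208, plus strand.
miR-196a-5p: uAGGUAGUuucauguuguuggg
Reads assigned to the gene were 1 and 5 in D395A, 33 and 37 in KO, and 47 and 30 in WT (D395A over WT -3.29 ± 0.66, adjusted p = 0.00064; over KO -3.31 ± 0.66, adjusted p = 0.0011; KO over WT 0.01 ± 0.51, adjusted p = 0.98). Total RNA libraries of this kind do not measure the mature microRNA. Hoxb8 rose to a like degree in D395A and in KO (log2 2.77 and 2.62 over WT), each time mainly in the uneven library. Mir196a-1 was lower only in D395A, and a link between the 2 genes was not tested. The noncoding gene Gm53 of the same stretch, picked after its values were seen, had 4.94 and 4.80 CPM in D395A and 18.0 and 15.6 CPM in KO, against 19.2 and 21.5 CPM in WT. It fell in D395A as well (-2.06 ± 0.12, adjusted p = 8.8e-09). The median log2 change of chromosome 11, where both genes lie, was -0.49 for D395A over WT.

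Other genes of the HOX pathway came from lists chosen with earlier results of these data known, so their counts are descriptions. They stand against 36.3% of all tested genes called higher and 34.0% lower in D395A over WT (70.3% in all), and 33.6% and 32.6% in KO over WT (66.2% in all). Of 8 TALE homeodomain cofactors that bind DNA with HOX proteins, 6 rose and 2 fell in D395A over WT (median log2 1.23, all genes 0.02), and 5 rose and 0 fell in KO over WT (0.50, all genes 0.01). Meis1 had 9.46 and 6.99 CPM in D395A and 1.54 and 1.70 CPM in KO, against 1.77 and 1.05 CPM in WT (2.53 ± 0.26 in D395A, adjusted p = 2.2e-06). Meis1 was thus higher in D395A than in either other group (2.34 ± 0.26 over KO, adjusted p = 9.2e-06). Pknox2 rose in both lines (2.27 ± 0.12 in D395A, adjusted p = 6.1e-09; 2.67 ± 0.12 in KO, adjusted p = 1.4e-09). So did Meis3 (2.18 ± 0.49, adjusted p = 0.0016; 2.14 ± 0.49, adjusted p = 0.002). Meis2 had 14 and 15.8 CPM in D395A and 17.3 and 20.1 CPM in KO, against 6.64 and 6.42 CPM in WT, and was clear of WT in both lines (1.52 ± 0.11 in KO, adjusted p = 1e-07).

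Of 9 tested upstream regulators and ParaHox genes, 4 rose and 1 fell in D395A over WT (median 0.48), and 1 rose and 2 fell in KO (0.08). Cdx2, a ParaHox activator of trunk HOX genes, had 3.11 and 2.72 CPM in D395A and 0.114 and 0.0576 CPM in KO, against 0.123 and 0.0551 CPM in WT (4.95 ± 0.59 in D395A, adjusted p = 8.4e-06; 5.03 ± 0.60 over KO, adjusted p = 1.8e-05). KO and WT overlapped at the level of a few counts. Cdx4, of the same family, rose in D395A (2.35 ± 0.81, adjusted p = 0.02), with 0.894 and 0.582 CPM there and 0.341 and 0.259 CPM in KO, against 0.246 and 0.0276 CPM in WT. Gdf11, a growth factor that sets the onset of posterior HOX genes in the trunk, had 9.63 and 10.1 CPM in D395A and 5.09 and 5.59 CPM in KO, against 3.54 and 2.65 CPM in WT (0.78 ± 0.17 in KO, adjusted p = 0.0011). The mesoderm gene T fell in both (-4.62 ± 0.51 in D395A, adjusted p = 3.8e-06; -4.68 ± 0.50 in KO, adjusted p = 3.1e-06), and Wnt3a fell in KO (-4.61 ± 1.41, adjusted p = 0.012).

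Of 16 tested genes of retinoic acid metabolism and response, 10 rose and 2 fell in D395A over WT (median 1.10, 75% called), and 4 rose and 4 fell in KO (0.40, 50% called). The share called in D395A was thus near that of all genes. Stra6, the retinol uptake receptor, had 27.7 and 28.1 CPM in D395A and 1.31 and 1.90 CPM in KO, against 1.33 and 0.965 CPM in WT (4.59 ± 0.17 in D395A, adjusted p = 1.8e-10). Rarb, a receptor gene that is itself induced by retinoic acid, had 4.73 and 3.72 CPM in D395A and 0.199 and 0.49 CPM in KO, against 0.197 and 0.331 CPM in WT (3.99 ± 0.48 in D395A, adjusted p = 8.2e-06). Both were also higher in D395A than in KO (4.12 ± 0.16, adjusted p = 8.3e-10, and 3.60 ± 0.46, adjusted p = 3.4e-05). Aldh1a3, which makes retinoic acid, fell in both lines (-6.43 ± 0.56 in D395A, adjusted p = 4.9e-07; -3.32 ± 0.40 in KO, adjusted p = 1e-05). In KO the degrading enzyme gene Cyp26a1 rose (2.61 ± 0.83, adjusted p = 0.015) and the binding protein gene Crabp1 fell (-2.47 ± 0.13, adjusted p = 4.4e-09).

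Genes of the complexes that silence or keep HOX loci active changed in both directions. Of 12 genes of Polycomb complex PRC2, which trimethylates histone H3 at lysine 27, 2 rose and 8 fell in D395A over WT (median -0.45, 83.3% called), and 4 rose and 6 fell in KO (-0.16, 83.3% called). Suz12 had 190 and 195 CPM in D395A and 238 and 242 CPM in KO, against 580 and 596 CPM in WT (-1.61 ± 0.06 in D395A, adjusted p = 3.9e-10), so it was low in both lines. Phf19 fell in both (-1.59 ± 0.20 in D395A, adjusted p = 1.5e-05; -2.39 ± 0.21 in KO, adjusted p = 6e-07). Eed fell in D395A (-0.96 ± 0.06, adjusted p = 3.2e-08) and the methyltransferase gene Ezh2 in KO (-1.40 ± 0.06, adjusted p = 1.3e-09). Epop rose in KO (1.97 ± 0.07, adjusted p = 2.7e-10).

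Of 19 PRC1 genes, 6 rose and 8 fell in D395A over WT (median -0.16, 73.7% called, near the share of all genes), and 10 rose and 6 fell in KO (0.22, 84.2% called). The largest calls were Cbx7 (-2.29 ± 0.07, adjusted p = 5.5e-11), Phc2 (1.87 ± 0.07, adjusted p = 3.3e-10) and Ring1 (1.09 ± 0.14, adjusted p = 1.3e-05) in D395A. In KO they were Pcgf1 (-1.54 ± 0.10, adjusted p = 3.5e-08), Pcgf5 (-1.38 ± 0.10, adjusted p = 9.4e-08) and Cbx8 (1.27 ± 0.28, adjusted p = 0.0016). Of 12 tested trithorax and demethylase genes, 4 rose and 6 fell in D395A (median -0.12), and 3 rose and 7 fell in KO (-0.20). Ash2l, a shared subunit of the H3K4 methyltransferases, fell in both lines (-1.34 ± 0.07 in D395A, adjusted p = 2.3e-09; -1.60 ± 0.07 in KO, adjusted p = 6.6e-10). Rbbp5 and Wdr5 fell in D395A (-1.12 ± 0.07 and -0.94 ± 0.07, adjusted p = 1.6e-08 and 5.5e-08). Kmt2c and Dpy30 fell in KO (-0.58 ± 0.07 and -0.50 ± 0.07, adjusted p = 1.8e-05 and 2.2e-05).

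Of 14 tested genes that flank the clusters, 3 rose and 9 fell in D395A over WT (median -0.25, 85.7% called), and 2 rose and 7 fell in KO (-0.31, 64.3% called, near the share of all genes). The largest calls in D395A lay beside cluster b on chromosome 11, where Calcoco2 had 5.45 and 4.74 CPM in D395A and 50.3 and 47.5 CPM in KO, against 50.6 and 43.5 CPM in WT (-3.22 ± 0.11, adjusted p = 9e-11). Ttll6 (-2.50 ± 0.18, adjusted p = 8.2e-08) and Snx11 (-1.89 ± 0.16, adjusted p = 2.7e-07) fell with it. The median log2 change of chromosome 11 was itself -0.49 for D395A over WT and -0.42 for KO over WT, and its part in these falls was not tested. In KO, Snx11 (-1.54 ± 0.15, adjusted p = 1.2e-06), Snx10 beside cluster a (-1.24 ± 0.06, adjusted p = 3.7e-09) and Cbx5 beside cluster c (-0.95 ± 0.08, adjusted p = 3.9e-07) fell.

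Markers of ESCs and of other cell types were read beside these changes, and their part in the HOX results was not tested. Defining ESC markers were present in all libraries: Sox2 stood at 265 to 311 CPM and Pou5f1 at 310 to 648 CPM. The 7 ESC markers summed to 1839 and 1891 CPM in D395A and 3980 and 3988 CPM in KO, against 3142 and 3171 CPM in WT. Of them, 0 rose and 6 fell in D395A over WT, and 3 rose and 2 fell in KO. Of 9 mesoderm markers, 6 were tested, and 0 rose and 2 fell in each line (sums 5.13 to 5.37 CPM in D395A, 10.9 to 12.1 in KO and 19.4 to 23.6 in WT). Of 7 neural progenitor markers, 4 were tested: 3 rose and 1 fell in D395A, and 0 rose and 1 fell in KO. Their sums were 37.4 to 39.4 CPM in D395A, 38.8 to 39.5 in KO and 37.6 to 38.9 in WT. Pax6 among them stood at 10.6 and 11.3 CPM in D395A and 0.0853 and 0.605 CPM in KO, against 1.18 and 1.41 CPM in WT. Nes, the most abundant of the list, was the marker that fell in D395A. It had 14 and 16.2 CPM in D395A, 34.8 and 33.2 in KO and 34.1 and 32.1 in WT. The near-equal sums thus hide moves in opposite directions. Of 5 neural crest markers, with Foxd3 at 0 throughout, 4 were tested, and 2 rose and 0 fell in each line. Their sums were 9.37 to 10.2 CPM in D395A, 14.2 to 15.3 in KO and 6.20 to 8.24 in WT.

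Of 5 definitive endoderm markers, with Cer1 at 0 throughout, 4 were tested: 1 rose and 1 fell in D395A, and 1 rose and 0 fell in KO. They summed to 24.6 to 26.5 CPM in D395A, 6.6 to 7.95 in KO and 5.90 to 5.95 in WT. Foxa2 made most of the D395A sum (20.2 and 22.5 CPM). Of 5 extraembryonic endoderm markers, 3 were tested, and 0 rose and 2 fell in each line (4.73 to 4.88 CPM in D395A, 4.38 to 5.01 in KO and 9.59 to 10 in WT). Of 7 trophoblast markers, 6 were tested: 5 rose in D395A and 3 in KO, with 0 falls (79.2 to 83.9 CPM in D395A, 56.1 to 59.1 in KO and 56.8 to 57.4 in WT). Elf5 among them was at 0 in both D395A libraries. Of 9 fibroblast markers, 6 were tested: 4 rose and 2 fell in D395A, and 2 rose and 1 fell in KO. Their sums were 8.69 and 3.77 CPM in D395A and 7.48 and 9.59 CPM in KO, against 5.95 and 5.95 CPM in WT. Twist2 and Prrx1 are given above for their unevenness. Without them the other 7 summed to 3.62 and 3.47 CPM in D395A, 7.39 and 7.35 in KO and 5.95 and 5.95 in WT. Since the members left out were picked for being uneven, the evenness of the rest tells nothing about the uneven libraries. Thy1 and Col1a1 made most of the sum in KO and WT. Single members differed, with Dcn at 0 and 0.202 CPM in KO and Thy1 at 4.95 and 4.21 CPM.

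The base sequence GGACT, the best known context of m6A, was about as frequent in HOX transcripts as elsewhere. In the longest coding transcript of each gene its median was 1.07 per kilobase in the 38 HOX genes and 1.01 per kilobase over 21877 protein-coding genes, and 10.5% of HOX genes against 12.4% of all had none. The 4 without it were Hoxa4, Hoxa11, Hoxb4 and Hoxc12. m6A itself was not measured in these libraries.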

How the data were processed

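Counts per gene were deposited by the authors, 1 table per library with 24984 gene rows. The tools were Trimmomatic 0.36, STAR 2.7 and HTSeq 0.11.2 with mm10, per the submitters' processing notes. For the annotation release and the strand setting of the counting, the entry is "not given in the sources used here". The counts carry no molecular identifiers. The summary lines of HTSeq (29% to 44.2% of a table's total) were left out. The lowest share was that of KO replicate 2 and the highest that of D395A replicate 1, the 2 uneven libraries. Members, gene lists and tests were chosen with earlier results of these data known. Of the HOX genes that the symbol rule finds, 1 is not reported here, nor are 2 genes of the other lists, and HOX and list counts, sums and figures leave them out. Every other HOX gene is accounted for, and from each other list at most the 3 largest calls per comparison with WT are named.

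From the counts, edgeR 4.0.16 (R 4.3.3) was run with filterByExpr (15663 genes kept), TMM factors and the quasi-likelihood F test on all 6 libraries, without covariates, with p-values adjusted by Benjamini-Hochberg within a comparison and a threshold of 0.05. Residual degrees of freedom were 3, prior ones 9.26, and the coefficient of biological variation was 6%. DESeq2 1.42.0 was an alternative. The test was run first on simulated counts. Replicates differed beyond counting noise in each group (chi-square per degree of freedom 11.1 in D395A, 6.48 in KO and 3.19 in WT). Folds against a group at 0 counts use a floor of 3 counts over the group (0.0504 CPM in D395A, 0.0429 in KO, 0.039 in WT), and ratios against 1 to 3 counts have exact 95% intervals. Both cover counting error only. Exon lengths, overlaps and positions are from GENCODE M21 (GRCm38), and upstream and microRNA sequences from RefSeq (GRCm38.p6).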

Additional observations from a re-analysis of the deposited data

Results flagged for a closer look

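The mutant lines differed from each other at 17 of 34 tested HOX genes (50%) by the direct test of D395A over KO (edgeR, adjusted p under the threshold of 0.05). Over all tested genes 50.4% were called, so the count itself does not set HOX genes apart. The log2 values of the genes higher in D395A were 4.37 for Hoxa2, 4.49 for Hoxa3, 1.92 for Hoxa4, 2.60 for Hoxa5, 1.83 for Hoxa7, 2.26 for Hoxa9 and 3.73 for Hoxb2, and Hoxb1 was at least 25.8-fold higher. Those of the genes lower in D395A were -1.76 for Hoxa10, -0.87 for Hoxb9, -4.54 for Hoxb13, -1.10 for Hoxc4, -3.26 for Hoxc11, -3.94 for Hoxc12, -1.71 for Hoxc13, -0.99 for Hoxd9 and -1.51 for Hoxd13. Of these, Hoxa4, Hoxa7, Hoxa9, Hoxa10 and Hoxd9 lost their call in at least 1 of the 6 fits that left out a library, and Hoxa2, Hoxa7, Hoxa10 and Hoxd9 lost it by DESeq2. Hoxb13 and Hoxc13 were called in opposite directions over WT in the 2 lines, lower in D395A and higher in KO. Hoxb9 was too, but relative to its chromosome its D395A change turned positive. Each line is set against the same WT libraries, and whether a line stands for 1 clone is not given, so genotype and line cannot be told apart.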

How the results depend on the processing

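Over 50 called gene and comparison pairs, 514 values under tested alternatives kept their direction and call, 109 kept the direction and missed the threshold, and 4 turned. The 50 leave out called pairs with a group at 0 counts, which are at Hoxa2, Hoxb1, Hoxb3, Hoxb5 and Hoxd3. Some of those calls were among the easily lost ones given above. Alternatives in which a gene was not tested are not in the tally either. Relative to the median of the chromosome, which gives no test, 46 values moved by less than their standard error, 3 by more and 1 turned. The 5 turns were Hoxa11 (-2.27), Hoxd10 (-3.09) and Hoxc9 (-0.18) for D395A over WT without D395A replicate 1, Hoxc9 (-0.18) without D395A replicate 1 and KO replicate 2, an alternative chosen after seeing the data, and Hoxb9 (0.12) relative to chromosome 11. Those of Hoxa11 and Hoxd10 set 0 counts in D395A against 1 and 2 counts in WT, too few to give a direction. The highest values of these genes given below come from fits in which the WT library left had 0 counts. The count of higher calls was 12 for D395A over WT and 3 for D395A over KO with at least 1 CPM in 2 libraries, since fewer genes were tested. Without the 2 uneven libraries it was lower for D395A over WT and for KO over WT, in part because Hoxa11, Hoxb5, Hoxb8 and Hoxd3 were not tested there. The cause of the rest was not tested. Leaving out each library in turn gave log2 values of -2.27 to 8.52 for Hoxa11, -3.09 to 8.59 for Hoxd10 and -0.18 to 2.79 for Hoxc9 in D395A over WT, and it gave 6 to 22 higher and 4 to 8 lower calls for D395A over WT (6 without D395A replicate 1, 7 without WT replicate 1, 8 without WT replicate 2), 6 to 20 higher and 0 to 1 lower for KO over WT (1, Hoxa3, without KO replicate 1), and 5 to 11 higher and 7 to 14 lower for D395A over KO. Some genes were called only when a library was left out. For D395A over WT these were Hoxb4 and Hoxc10. For KO over WT they included Hoxa5, Hoxb3, Hoxb7, Hoxc5, Hoxc9, Hoxc10, Hoxd4 and Hoxd10. For D395A over KO they were Hoxa11, Hoxb3, Hoxb4, Hoxb5, Hoxc9, Hoxc10 and Hoxd10. The direction of Hoxc9 over KO depended on the library left out, with log2 -1.62 without D395A replicate 1 and 1.35 without D395A replicate 2. That of Hoxa11 over KO also depended on the library. DESeq2 missed Hoxa11, Hoxb5, Hoxb9, Hoxc4, Hoxc9, Hoxd10 and Hoxd13 for D395A over WT, Hoxa2, Hoxa11 and Hoxb5 for KO over WT, and Hoxa2, Hoxa7, Hoxa10 and Hoxd9 for D395A over KO (adjusted p 0.062 to 0.26).

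Replicate numbers are shared between groups but nothing says that they pair the libraries: deviations of same-numbered libraries had r = -0.21 for D395A and KO, 0.00964 for D395A and WT and 0.0141 for KO and WT. With the replicate block, calls were 20 higher and 6 lower for D395A over WT, 14 and 0 for KO over WT, and 7 and 9 for D395A over KO. The calls that missed the threshold with the block were Hoxc5 (adjusted p = 0.052) and Hoxd13 (0.074) for D395A over WT, Hoxb5 (0.055) for KO over WT, and Hoxa9 (0.061) and Hoxa10 (0.063) for D395A over KO. Depth limits the genes under about 1 CPM, where a library held few counts.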
